A study of Mus musculus with 7 samples.

Results

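The genes described here are 8 antimicrobial and protease-inhibitor genes of alveolar macrophages, the phagocytes resident in the airspaces of the lung. They were taken by name from the deposited table of 47643 genes. They are the lysozyme pair Lyz2 and Lyz1, the WAP-domain genes Wfdc17, Wfdc21, Wfdc10 and Slpi, lipocalin 2 (Lcn2) and the cathelicidin Camp. All 8 were found, each as 1 row, and 6 of them had a mean of at least 1 TPM over the 7 libraries and entered the test. Lcn2 and Camp did not.

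The cells came from mouse lung and were compared by poly(A) RNA sequencing. The CD11ccre group (n = 1) and the Lyz2cre group (n = 3) carried floxed Siah1a and Siah2, which encode RING-type E3 ubiquitin ligases, together with a Cre recombinase named for CD11c (the product of Itgax) or for Lyz2. The WT group (n = 3) was labelled wild type and positive for CD11c, F480 and SiglecF, and its labels name neither a Cre nor a floxed allele. The labels give no age, sex, strain background or treatment, and they do not say whether replicates came from separate animals, so p-values measure the spread between these libraries, which may be technical. Values are TPM: reads divided by gene length and scaled so that each library sums to 1000000. Sequencing depth is unknown from such values, and counting error is not given.

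Lysozyme cuts the peptidoglycan of bacterial cell walls. Mice have a pair of lysozyme genes, of which Lyz2 (lysozyme M) is the one used by macrophages and is ordinarily among their most abundant transcripts, while Lyz1 (lysozyme P) is best known from Paneth cells of the gut. Lyz2 is also a Cre driver: in the widely used Lyz2-Cre mouse the recombinase is inserted into the Lyz2 coding start, so that the modified allele no longer makes lysozyme M, whereas CD11c-Cre is a transgene placed elsewhere. WAP-domain proteins are small secreted proteins built on a core of disulfide bonds, and several of them inhibit serine proteases or kill bacteria. Lipocalin 2 captures bacterial siderophores, and cathelicidin is a granule protein that is cleaved to a membrane-active peptide.

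Lyz2 (ENSMUSG00000069516, chromosome 10, 117277331 to 117282321, minus strand, mm10) and Lyz1 (ENSMUSG00000069515, chromosome 10, 117287797 to 117292868, minus strand) lie 5475 bp apart. Their coding sequences of 444 nt, each spread over 4 exons, were aligned without gaps and differ at 22 positions (95.05% identical), and 12 of the 148 encoded residues differ. The stretch in which they differ most, coding positions 61 to 120 with 9 differences, is shown because it holds the densest differences between the copies. It lies at chr10:117282123-117282182 in Lyz2 and chr10:117292719-117292778 in Lyz1. Sequences are given 5′ to 3′ on the minus strand of mm10 from the GENCODE M21 transcripts, with differing bases in capitals.

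Lyz2: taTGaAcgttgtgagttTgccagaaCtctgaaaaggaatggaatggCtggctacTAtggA

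Lyz1: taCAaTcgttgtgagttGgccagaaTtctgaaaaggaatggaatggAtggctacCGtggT

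Other stretches hold fewer differences or none. Coding positions 211 to 270 are the same in both genes and are shown because they hold no base that tells the copies apart. They lie at chr10:117280672-117280731 in Lyz2 and chr10:117291060-117291119 in Lyz1.

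Lyz2 and Lyz1: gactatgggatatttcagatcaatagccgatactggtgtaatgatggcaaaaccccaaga

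Of the 1242 windows of 75 bases (the read length in the labels) in the Lyz2 transcript, 74 (5.96%) occur unchanged in Lyz1, and 531 (42.8%) come within 2 mismatches of it. The other 6 genes share no such window with any other gene of GENCODE M21. The authors' split of reads between the lysozymes is therefore uncertain in part. For the other 6 genes only unchanged windows were sought, and near copies with mismatches were not looked for.

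Across libraries, 10883 to 11518 genes reached 1 TPM. Mitochondrially encoded genes took 4.23% of the TPM in CD11ccre, 2.67% to 4.61% in Lyz2cre and 7.54% to 9.25% in WT. With these genes left out and the rest rescaled, a setting chosen after seeing the data, every call on the 8 genes was kept and Lyz2 in Lyz2cre against WT was gained, as given below. The targeted Siah1a was listed at 0 in CD11ccre, at 0 to 0.05 TPM in Lyz2cre and at 12.2 TPM ± 5.03 (SD, n = 3) in WT. Siah2 stood at 1.21 TPM in CD11ccre, 1.63 TPM ± 0.275 in Lyz2cre and 14.5 TPM ± 2.47 in WT (SD, n = 3 each). As background for the next counts, 2.17% of the 11397 genes tested were called higher and 4.6% lower in Lyz2cre against WT. The shares for CD11ccre are given further on. All 21 alveolar macrophage markers reached the mean of 1 TPM needed for the test, and 7 were called higher and 4 lower in Lyz2cre against WT, and 4 higher and 3 lower in CD11ccre against WT. Fabp5, Chil3 and Car4 rose and Ear1 and Ear2 fell in both lines, while Cidec fell in Lyz2cre and missed the threshold in CD11ccre (limma adjusted p = 0.0530). Siglecf, 1 of the markers in the WT label, fell to 53.9 TPM in CD11ccre and a mean of 84.5 TPM in Lyz2cre, against 231 TPM in WT (limma adjusted p = 0.0136 for CD11ccre and 0.00746 for Lyz2cre). Lyz2 itself was low in the WT as well as in the Lyz2cre libraries, as given next, and the labels do not say which alleles the WT mice carried at Lyz2. Every comparison with WT rests on these WT libraries. Log2 fold changes were computed from log2(TPM + 1), where the added 1 makes the change of a low gene look smaller. N-fold values are plain ratios of mean TPM.

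Lyz2 was 926-fold higher in the single CD11ccre library than the Lyz2cre mean and 643-fold higher than the WT mean. It stood at 50676 TPM there, against 46.62, 61.89 and 55.73 TPM in the Lyz2cre libraries and 77.64, 72.56 and 86.25 TPM in WT. It thus made up 5.07% of all TPM in the CD11ccre library and ranked 2 among its genes, after Chil3, whereas it ranked between 1996 and 2543 in Lyz2cre and between 1542 and 1900 in WT. The log2 fold change was 9.31 ± 0.19 (SE) for CD11ccre against WT (limma adjusted p = 1.95e-06) and 9.84 ± 0.19 (SE) for CD11ccre against Lyz2cre (limma adjusted p = 1.31e-06). Each was the largest among the 11397 genes tested in its comparison. The CD11ccre group has 1 library, which the fit assumes to vary like the others, so neither value has a replicate check of its own. In bulk samples, fewer cells of a type and less RNA per cell cannot be told apart, which holds for every result here.

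Between Lyz2cre and WT, the difference in Lyz2 did not pass the test. The 3 Lyz2cre libraries were all lower than the 3 WT libraries, at 54.7 TPM ± 7.68 and 78.8 TPM ± 6.92 (SD, n = 3 each). The log2 fold change was -0.52 (95% interval -0.84 to -0.21, not adjusted for the number of genes, limma unadjusted p = 0.0056). After adjustment it missed the threshold (limma adjusted p = 0.0633). An exact permutation test (two-sided, on mean TPM) gave p = 0.1, the smallest that 3 against 3 libraries allow. The call depended on the scaling: leaving out the mitochondrially encoded genes gave -0.60 (limma adjusted p = 0.0345), and median-of-ratios scaling gave -0.34 (limma adjusted p = 0.225), within an adjusted p of 0.0345 to 0.2395 over all alternatives.

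Lyz1 fell in both Cre lines. It stood at 9.39 TPM in CD11ccre, at 8.22, 13.08 and 14.08 TPM in Lyz2cre libraries, against 76.92, 57.4 and 43.2 TPM in WT. The Lyz2cre libraries did not overlap the WT libraries, and the CD11ccre library lay inside the Lyz2cre range. The mean was 5.02-fold lower in Lyz2cre than in WT, with a log2 fold change of -2.23 ± 0.27 (SE, limma adjusted p = 0.00618). For CD11ccre against WT it was -2.50 ± 0.38 (SE, limma adjusted p = 0.0241), which no longer passed when WT replicate 1 (limma adjusted p = 0.0588) or WT replicate 2 (limma adjusted p = 0.0680) was left out. Against WT, Lyz1 was thus lower in CD11ccre and its neighbour Lyz2 higher, but Lyz2 was itself low in WT. The Lyz1 value in CD11ccre was 0.0185% of that of Lyz2. The ratio of Lyz2 to Lyz1 was 5400 in CD11ccre, 3.96 to 5.67 in Lyz2cre and 1.01 to 2.00 in WT. How reads were split between the copies was not tested.

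**Figure D1:**
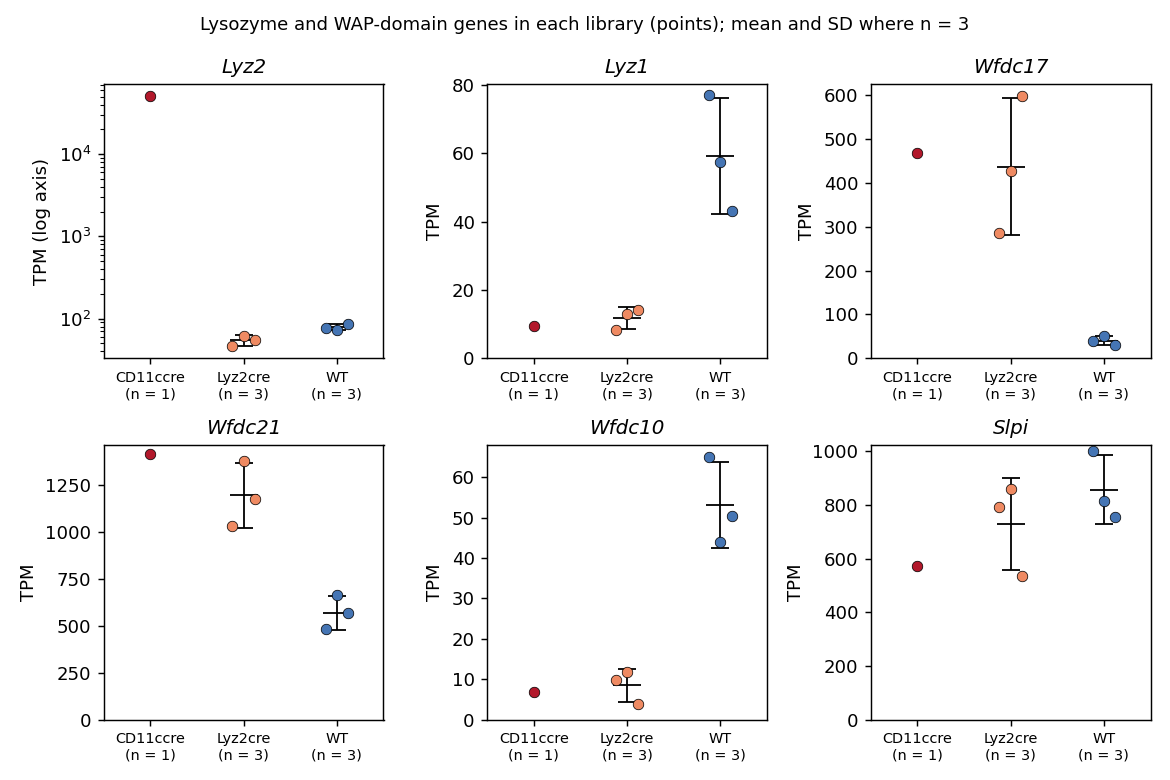
TPM of the 6 tested genes in every library (points), with the mean and SD where a group has 3 libraries; the Lyz2 axis is logarithmic and the others start at 0. Lyz2 is high in CD11ccre alone, and Lyz1 and Wfdc10 are low and Wfdc17 and Wfdc21 high in both Cre lines. Slpi overlaps between Lyz2cre and WT, and its CD11ccre value lies below every WT library.

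Wfdc17 and Wfdc21, which lie 40671 bp apart on the plus strand of chromosome 11, were higher in both Cre lines. Wfdc17 (ENSMUSG00000069792, 83703991 to 83706268, mm10) encodes a macrophage WAP protein that is described in mouse as dampening inflammatory activation. Its TPM was 467.65 in CD11ccre, 285.19, 427.67 and 597.49 in Lyz2cre and 39.36, 51.66 and 30.86 in WT. All 4 Cre libraries thus lay above the highest WT library, although the Lyz2cre values spread widely (coefficient of variation 35.8%). The log2 fold change was 3.36 ± 0.29 (SE, limma adjusted p = 0.00228) for Lyz2cre against WT, a 10.8-fold rise of the mean and the ninth largest rise of all genes tested. For CD11ccre against WT it was 3.52 ± 0.41 (SE, limma adjusted p = 0.0101), an 11.5-fold difference.

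Wfdc21 (ENSMUSG00000051748, chromosome 11, 83746940 to 83752642, mm10) encodes a small secreted WAP protein also known in mouse as Wdnm1-like. It was the most abundant of the WAP genes in the Cre lines, at 1415.09 TPM in CD11ccre and 1030.05, 1377.83 and 1172.22 TPM in Lyz2cre, against 481, 662.18 and 568.23 TPM in WT. None of the Cre libraries overlapped WT, and the rise was smaller and more even than that of Wfdc17. The log2 fold change was 1.07 ± 0.16 (SE, limma adjusted p = 0.0115) for Lyz2cre against WT, a 2.09-fold rise that just missed the threshold without Lyz2cre replicate 3 (limma adjusted p = 0.0505). For CD11ccre against WT it was 1.32 ± 0.22 (SE, limma adjusted p = 0.0304). That call ended without WT replicate 1, 2 or 3 (limma adjusted p = 0.0637, 0.0517 and 0.0604) and without Lyz2cre replicate 3 (limma adjusted p = 0.0575).

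Wfdc10 (ENSMUSG00000070529, chromosome 2, 164656046 to 164657368, plus strand, mm10) went the other way. It stood at 6.85 TPM in CD11ccre and 9.81, 11.7 and 3.96 TPM in Lyz2cre, against 64.89, 44.01 and 50.43 TPM in WT, with no overlap between WT and either Cre line. The mean was 6.26-fold lower in Lyz2cre than in WT (log2 fold change -2.60 ± 0.35, SE, limma adjusted p = 0.00922). The estimate for CD11ccre against WT was of like size, -2.77 ± 0.50 (SE, limma adjusted p = 0.0375). That call ended without WT replicate 1, 2 or 3 (limma adjusted p = 0.0885, 0.0782 and 0.0703), without Lyz2cre replicate 1 (limma adjusted p = 0.0676) and with median-of-ratios (limma adjusted p = 0.0518) or quantile scaling (limma adjusted p = 0.0541). Wfdc10 overlaps Wfdc9 on the opposite strand, and Wfdc9 was listed at 0 in every library.

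The upstream sequences of the WAP genes that changed most are shown because these genes moved in opposite directions. Both run from 250 to 66 bases before the RefSeq start (GRCm38.p6, plus strand), chr11:83703806-83703990 for Wfdc17 and chr2:164655796-164655980 for Wfdc10. Capitals mark matches to the letters TTNNGNAA (a C/EBP pattern) or GAGGAA (a PU.1 pattern) on either strand.

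Wfdc17: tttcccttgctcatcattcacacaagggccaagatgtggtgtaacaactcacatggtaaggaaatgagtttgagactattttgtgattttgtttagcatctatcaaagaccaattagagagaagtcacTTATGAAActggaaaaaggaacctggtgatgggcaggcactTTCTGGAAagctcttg

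Wfdc10: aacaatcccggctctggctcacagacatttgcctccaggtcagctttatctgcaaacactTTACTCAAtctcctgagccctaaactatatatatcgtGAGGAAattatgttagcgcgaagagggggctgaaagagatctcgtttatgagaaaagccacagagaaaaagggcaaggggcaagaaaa

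Wfdc17 holds the C/EBP letters at 2 places and Wfdc10 at 1, and the PU.1 letters stand in Wfdc10 at 1 place. These letters are common: 30.7% of 32851 RefSeq windows of this length hold the C/EBP pattern and 17.6% the PU.1 pattern. Neither window holds the antioxidant response element core, spelled TGACNNNGC, which stands in 6.9% of all windows. The same is true of an NF-kappaB pattern spelled GGANTTTCC, found in 0.8% of windows, and of the TATA box letters TATAAA, found in 8.5%. The table gave no window for Wfdc21. In the same windows, Lyz1 holds the C/EBP letters at 1 place and Lyz2 holds none of the 5 patterns, and 137 of the 185 bases are identical in a gapped alignment of the lysozyme windows.

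Slpi (ENSMUSG00000017002, chromosome 2, 164354070 to 164389095, minus strand, mm10) encodes the secretory leukocyte peptidase inhibitor, which blocks neutrophil elastase and cathepsin G. It was the most abundant of the WAP genes in WT and did not pass the test in any comparison. Its TPM was 570.54 in CD11ccre, 791.32, 858.83 and 536.62 in Lyz2cre and 999.45, 813.94 and 755.58 in WT. The Lyz2cre and WT ranges overlap, and the CD11ccre library lies below every WT library. The log2 fold change was -0.25 for Lyz2cre against WT (95% interval -0.71 to 0.21, limma adjusted p = 0.478, exact two-sided permutation p = 0.5). It was -0.57 for CD11ccre against WT (95% interval -1.22 to 0.07, limma adjusted p = 0.268), and both intervals hold 0.

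Lcn2 and Camp were at or near the lower end of the table in every group. Lcn2 (ENSMUSG00000026822, chromosome 2, 32384633 to 32388252) was listed at 0 in CD11ccre, at 0, 1.23 and 0.85 TPM in Lyz2cre and at 0.53, 0 and 1.25 TPM in WT. The groups overlap and no group stood apart (Lyz2cre against WT, exact two-sided permutation p = 1). Camp (ENSMUSG00000038357, chromosome 9, 109847379 to 109849617) was listed at 0 in all 7 libraries.

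Counted over the genes tested, 2 of 6 were higher and 2 lower in Lyz2cre than in WT, and 2 were not called. Over all 11397 genes tested, 2.17% were called higher and 4.6% lower in that comparison. In the count for CD11ccre that follows, Lyz2 is among the higher genes, and its low value in WT is unexplained. For CD11ccre against WT, 3 of 6 were higher, 2 lower and 1 was not called, against 0.895% of all genes called higher and 1.99% called lower. Without the filter on low values, Lyz1, Wfdc21 and Wfdc10 were not called in CD11ccre against WT (limma adjusted p 0.0530 to 0.0847), nor without the trend (limma adjusted p 0.0558 to 0.0770). In Lyz2cre against WT, Wfdc21 and Wfdc10 were not called without the filter (limma adjusted p = 0.0554 and 0.0521). The shift of all genes has to be set beside these values: the median log2 fold change of all genes tested was -0.16 for Lyz2cre against WT, -0.29 for CD11ccre against WT and -0.12 for CD11ccre against Lyz2cre. Relative to that median, Wfdc17 was higher by 3.53 and Lyz1 lower with -2.06 in Lyz2cre against WT, and Slpi stood at -0.09. Median-of-ratios scaling, which brings the median near 0, turned the split of all calls in Lyz2cre against WT into 337 higher and 207 lower, from 247 higher and 524 lower, and left the same 4 genes of the set called in the same directions.

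The Cre lines were then set against each other, a comparison that uses neither line's difference from WT. Of the 6 genes tested, Lyz2 was higher in CD11ccre than in Lyz2cre, 0 were lower and 5 were not called by limma, with 1 higher and 0 lower at an unadjusted p under 0.05. Over all genes tested, 0.0439% were called higher and 0.0702% lower. The intervals of the other 5 genes all hold 0: -1.15 to 0.62 for Lyz1, -0.80 to 1.12 for Wfdc17, -0.26 to 0.77 for Wfdc21, -1.34 to 1.01 for Wfdc10 and -0.97 to 0.32 for Slpi (95%, log2). Intervals this wide, with 1 CD11ccre library, do not show that the lines are alike. Apart from Lyz2 and Gm43305, each gene called between the lines was listed at 0 either in CD11ccre or in all other libraries. S100a4 and processed pseudogenes were at 0 in CD11ccre, and snoRNA and microRNA genes were at 0 in the others. Whether the lone CD11ccre library differs technically was not tested. The comparisons of each line with WT share the WT libraries, so their likeness is not independent.

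**Figure D2:**
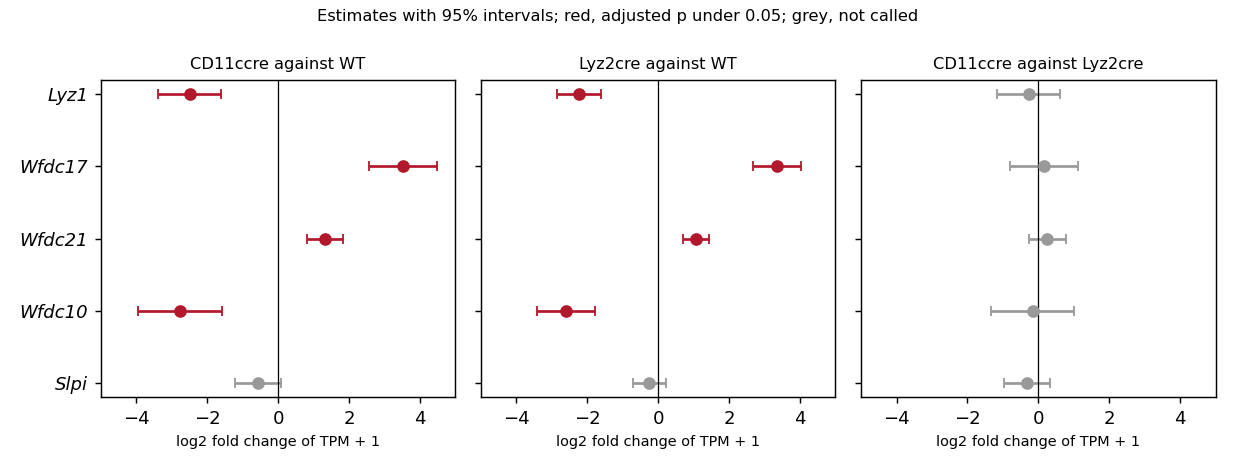
Log2 fold change of TPM + 1 with its 95% interval for 5 of the tested genes in the 3 comparisons; red points passed an adjusted p of 0.05 in limma and grey points did not. Lyz1 and Wfdc10 lie left of 0 and Wfdc17 and Wfdc21 right of 0 against WT, and all 5 intervals hold 0 between the Cre lines.

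**Figure D3:**
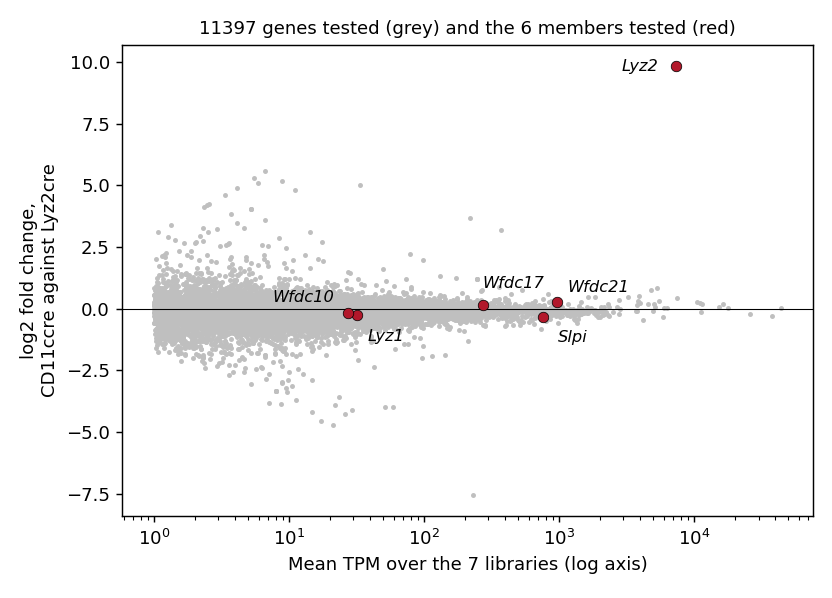
Log2 fold change of CD11ccre against Lyz2cre for the 11397 genes tested (grey) and the 6 members of the set (red), against mean TPM on a log axis. Lyz2 stands alone at 9.84, while the other 5 lie between -0.32 and 0.26.

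Summed, the 4 WAP genes made up more of the RNA in the Cre lines, at 2460 TPM in CD11ccre and 2116, 2676 and 2310 TPM in Lyz2cre, against 1585, 1572 and 1405 TPM in WT. The makeup of that sum differed as well. Slpi gave 23.2% of it in CD11ccre, 23.2% to 37.4% in Lyz2cre and 51.8% to 63.1% in WT, while Wfdc21 gave 57.5% in CD11ccre, 48.7% to 51.5% in Lyz2cre and 30.4% to 42.1% in WT. These sums describe the genes chosen and were not tested.

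**Figure D4:**
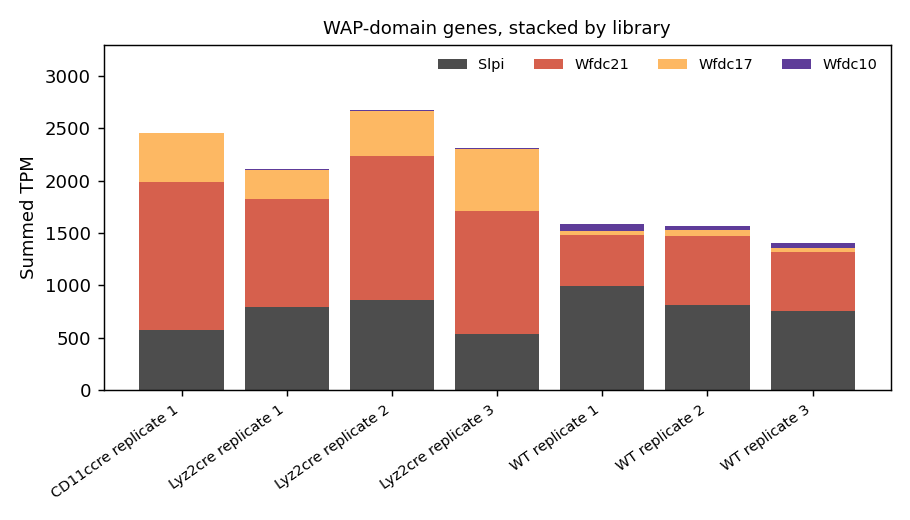
TPM of Slpi, Wfdc21, Wfdc17 and Wfdc10 stacked for each library. The 4 Cre libraries reach 2116 to 2676 TPM and the 3 WT libraries 1405 to 1585 TPM, with Slpi the largest part in WT and Wfdc21 the largest part in the Cre lines.

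The wider families were mostly silent. Of 24 WAP-domain genes in the table, 14 were listed at 0 in every library and 5 were tested. Besides the 4 already given, these took in Wfdc2, an epithelial WAP gene, at 2.00 TPM in CD11ccre, 2.75 TPM ± 0.922 in Lyz2cre and 3.84 TPM ± 3.88 in WT (SD, n = 3 each, limma adjusted p = 0.937 for Lyz2cre against WT). Wfdc18, which lies between Wfdc17 and Wfdc21 and starts 2746 bp after Wfdc17 ends, was listed at 0 in 6 libraries and at 3.18 TPM in Lyz2cre replicate 3. Of 8 lysozyme family genes 5 were listed at 0 throughout, and the third gene tested, the sperm lysozyme-like Lyzl4, stood at 0.570 TPM in CD11ccre and averaged 0.870 TPM in Lyz2cre and 1.90 TPM in WT (limma adjusted p = 0.806 for Lyz2cre against WT). In the lipocalin list of 19 genes only Slc22a17, a receptor proposed for lipocalin 2, was tested, at 3.97 TPM in CD11ccre, 7.79 TPM ± 1.87 in Lyz2cre and 7.34 TPM ± 2.27 in WT (SD, n = 3 each, limma adjusted p = 0.881 for Lyz2cre against WT).

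Other antimicrobial genes were counted in the same way, beside the shares of all genes already given. Of 11 tested in that list, 1 rose, 1 fell and 9 were not called in Lyz2cre against WT (list median 0.04), and 1 rose, 0 fell and 10 were not called in CD11ccre against WT (list median -0.32, with 1 higher and 4 lower at an unadjusted p under 0.05 in limma). The riser in both was Slc11a1, the phagosomal metal transporter Nramp1, at 23.74 TPM in CD11ccre, 47.72, 25.86 and 25.86 TPM in Lyz2cre libraries, against 5.23, 4.32 and 2.99 TPM in WT (limma adjusted p = 0.0363 for CD11ccre and 0.00456 for Lyz2cre). At an unadjusted p under 0.05 in limma, 3 genes of this list were higher and 2 lower in Lyz2cre against WT. The ribonuclease Ang fell to 23.3 TPM ± 2.78 in Lyz2cre, against 39.2 TPM ± 4.42 in WT (SD, n = 3 each, limma adjusted p = 0.0357). Among the proteases and precursors that WAP inhibitors act on, Elane, Prtn3 and Ctsg were listed at 0 in every library, and granulin (Grn), which Slpi shields from elastase, averaged 852 TPM in CD11ccre, 890 TPM ± 38.0 in Lyz2cre and 830 TPM ± 146 in WT (SD, n = 3 each, limma adjusted p = 0.670 for Lyz2cre against WT).

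Of 12 tested genes in a list of myeloid transcription factors, which also holds the granule gene Ltf, limma called 0 higher and 0 lower against WT in either Cre line. At an unadjusted p under 0.05 there were 0 in Lyz2cre, and 0 higher and 2 lower in CD11ccre. Spi1, which encodes PU.1, stood at 310 TPM in CD11ccre, 319 TPM ± 41.5 in Lyz2cre and 333 TPM ± 26.0 in WT, and Cebpa at 210 TPM in CD11ccre, 223 TPM ± 21.9 in Lyz2cre and 195 TPM ± 19.3 in WT (SD, n = 3 each).

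Markers of other cell types were measured beside these genes. In the neutrophil list, 4 of 16 genes (Ly6g, Ngp, Elane and Stfa2l1) were listed at 0 in every library, and the list summed to 163 TPM in CD11ccre, 142 to 184 TPM in Lyz2cre and 75.5 to 118 TPM in WT. Within it S100a8 rose to 101 TPM ± 23.5 in Lyz2cre, against 24.9 TPM ± 8.70 in WT (SD, n = 3 each, limma adjusted p = 0.00985), and Csf3r fell to 8.38 TPM ± 2.87 in Lyz2cre, against 21.2 TPM ± 4.46 in WT (SD, n = 3 each, limma adjusted p = 0.0392). In CD11ccre against WT, Mmp8 rose to 45.9 TPM, against 12.6 TPM in WT (limma adjusted p = 0.0269), Csf3r fell to 4.43 TPM (limma adjusted p = 0.0436), and S100a8 stood at 92.1 TPM (limma adjusted p = 0.0545). S100a9 was not called in either line, at 1.62 TPM in CD11ccre, 1.16 to 6.90 TPM in Lyz2cre and 10.67 to 37.91 TPM in WT. On average, S100a8 alone made up most of the neutrophil list sum in Lyz2cre.

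In the monocyte and interstitial macrophage list, Cd14 alone made up most of the mean sum in Lyz2cre and in WT. The list summed to 617 TPM in CD11ccre, 1003 to 1093 TPM in Lyz2cre and 745 to 898 TPM in WT. In Lyz2cre against WT 1 of its 6 tested genes rose and 2 fell, and in CD11ccre against WT 0 rose and 1 fell. Fn1 fell to 11.6 TPM in CD11ccre and 36.9 TPM ± 13.7 in Lyz2cre, against 191 TPM ± 13.7 in WT (SD, n = 3 each, limma adjusted p = 0.00707 for CD11ccre and 0.00346 for Lyz2cre). Ccr2, a monocyte chemokine receptor, fell to 0.743 TPM in Lyz2cre, against 4.66 TPM in WT (limma adjusted p = 0.0360), and Cd14 rose to 953 TPM in Lyz2cre, against 576 TPM in WT (limma adjusted p = 0.0116). The dendritic and B cell list summed to 4.45 TPM in CD11ccre, 4.21 to 9.60 TPM in Lyz2cre and 24.0 to 31.7 TPM in WT, where every library lay above all Cre libraries. Of its 4 tested genes, Batf3 and Igkc fell in Lyz2cre against WT (limma adjusted p = 0.0374 and 0.0315) and 0 were called in CD11ccre against WT, with 0 higher and 2 lower at an unadjusted p under 0.05.

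Of airway epithelium markers, Scgb1a1 stood at 194 TPM in CD11ccre, 85.0 to 254 TPM in Lyz2cre and 105 to 186 TPM in WT, and the airway list summed to 222 TPM in CD11ccre, 99.5 to 290 TPM in Lyz2cre and 124 to 224 TPM in WT. The alveolar type 2 cell list summed to 78.4 TPM in CD11ccre, 85.2 to 101 TPM in Lyz2cre and 91.2 to 97.8 TPM in WT. These sums overlapped between Lyz2cre and WT for both epithelial lists, limma called 0 of 6 airway and 0 of 7 type 2 genes tested against WT in either line, and at an unadjusted p under 0.05 there were 1 airway gene higher and, of the type 2 genes, 2 higher and 1 lower in Lyz2cre. The type 2 genes did not move together: Sftpb stood at 5.56 TPM in CD11ccre, 3.75 to 3.94 TPM in Lyz2cre and 0.890 to 2.32 TPM in WT, and Napsa at 24.1 TPM in CD11ccre, 18.2 to 39.0 TPM in Lyz2cre and 43.6 to 59.1 TPM in WT. The part of other cells in the results was not tested.

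Patterns like those of the set were sought among 8123 protein-coding genes with a mean of at least 5 TPM, by Pearson's r of log2(TPM + 1) over the 7 libraries. The libraries fall into groups, so r mostly reflects the split between Cre lines and WT, and no p is given. Closest to Wfdc17 were the monoamine oxidase Maoa (r = 0.995), Rgcc (r = 0.994) and the lipid phosphatase Plpp3 (r = 0.994), and Rgcc was also among the closest to Wfdc21, after the prostaglandin D synthase Hpgds (r = 0.989) and Syngr1 (r = 0.985). Closest to Wfdc10 were the class II chaperone gene H2-DMa (r = 0.996), Icosl (r = 0.995) and Gtf3a (r = 0.994), and closest to Lyz1 were Asb13 (r = 0.995), Bckdhb (r = 0.991) and 1810037I17Rik (r = 0.989). Slpi was closest to Zfp868, Iffo1 and Angptl4 (r = 0.985 to 0.986). Lyz2 had the fewest likenesses: only 2 genes exceeded r = 0.9, against 86 to 596 for the other 5. Rhob (r = 0.914) stood at 144 TPM in CD11ccre, against means of 62.7 TPM in Lyz2cre and 59.8 TPM in WT. The stress-induced factor Atf3 (r = 0.907) stood at 312 TPM in CD11ccre, against means of 131 TPM in Lyz2cre and 166 TPM in WT, and with 1 high library such an r rests on that library.

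Of the genes next to the set and outside it, Yeats4 and 1110008P14Rik passed the test. Around the lysozymes, Cpsf6 stood at 26.6 TPM in CD11ccre and averaged 33.2 TPM in Lyz2cre and 43.0 TPM in WT (limma adjusted p = 0.354 for Lyz2cre against WT and 0.261 for CD11ccre against WT). Yeats4, a chromatin reader gene 52823 bp from Lyz2, fell to 49.5 TPM in CD11ccre and 70.8 TPM in Lyz2cre, against 104 TPM in WT (limma adjusted p = 0.0304 for CD11ccre and 0.0452 for Lyz2cre), so it did not share the height of Lyz2 in CD11ccre. Before Wfdc17, the chemokine gene Ccl3 stood at 49.4 TPM in CD11ccre and averaged 41.1 TPM in Lyz2cre and 27.5 TPM in WT, with no call (limma adjusted p = 0.169 for CD11ccre and 0.151 for Lyz2cre against WT). Its neighbour Ccl4 was not called either, at 7.96 TPM in CD11ccre, 6.60 TPM in Lyz2cre and 3.23 TPM in WT. Next to Lcn2, 1110008P14Rik fell to 27.1 TPM in CD11ccre, against 51.0 TPM in WT (limma adjusted p = 0.0497), and averaged 40.8 TPM in Lyz2cre (limma adjusted p = 0.178 against WT). The 4 protein-coding neighbours of Wfdc10 were listed at 0 in every library.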

How the data were processed

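The authors deposited 1 table of TPM for 7 libraries, given to 2 decimals, in which each library sums to about 1000000. Tools named in the submitters' processing notes are RSEM 1.3.1, STAR 2.7.0d and cutadapt 2.3, with build mm10. Per the labels' protocols the libraries are strand-specific and read from one end; the annotation release, tool parameters and strand setting were not stated there. Ensembl IDs were matched to GENCODE M21 (47224 of 47643).

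The members and all lists were chosen with earlier results of these data known. Groups came from sample titles. The test was limma 3.58.1 (R 4.3.3) on log2(TPM + 1) with a mean-variance trend, for genes with a mean of at least 1 TPM, in 1 fit of all 7 libraries with a coefficient per genotype (4 residual and 3.35 prior degrees of freedom). P-values are two-sided, with Benjamini-Hochberg adjustment across the 11397 genes that passed the filter, and 0.05 as the threshold. The lone CD11ccre library was assumed to vary like the others. Alternatives were other pseudocounts, filters, scalings and limma settings, removed genes, a replicate block and leaving out each library. The test of Lyz2cre against WT was checked on simulated data with changes placed in the Lyz2cre libraries. These changes were all of 2 log2 units, with noise drawn independently for each gene. Smaller changes and a shift of all genes were not simulated. Comparisons with the lone CD11ccre library were not checked in this way. By rule all 8 members could be named, with up to 6 called genes per list, any marker of other cells at 1 TPM or more in a library, the 3 most alike genes per member and the 2 nearest protein-coding genes on each side. Other list genes (Siglecf, Lyzl4, Wfdc2, Wfdc18, Ltf, Slc22a17, Grn, Spi1, Cebpa and those given as listed at 0) were chosen after their values were seen.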

Additional observations from a re-analysis of the deposited data

Results flagged for a closer look

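Lyz2 differed between the Cre lines. The test of CD11ccre against Lyz2cre gave a log2 difference of 9.84 (limma adjusted p = 1.31e-06), with 50676 TPM in the 1 CD11ccre library and 54.7 TPM ± 7.68 (SD, n = 3) in Lyz2cre. Groups of 3 libraries or fewer were not searched for outlying samples.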

How the results depend on the processing

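Of 324 recomputed member values, 298 kept their side of the threshold, 25 lost a call, 1 gained one and 0 reversed while called. Values that were not called could change sign. Between the Cre lines, the log2 fold change of Wfdc17 went from 0.16 to -0.11 without Lyz2cre replicate 1. That of Wfdc10 went from -0.16 to 0.10 without Lyz2cre replicate 2. Against WT, Lyz2 in CD11ccre kept its call in all 16 alternatives that hold Lyz2, and Wfdc17 and Lyz1 in Lyz2cre kept theirs in all 19. Without a filter on low values more genes are adjusted for, and unadjusted p-values in limma also rose in Lyz2cre against WT. They went from 0.00019 to 0.00112 for Wfdc21 and from 0.000123 to 0.00100 for Wfdc10. The number of members called in Lyz2cre against WT was 4, and 2 without that filter. Causes of lost calls were not tested, and a table rescaled without Lyz2 lacks that call by construction. In CD11ccre against WT the number of members called was 5, and 2 without the filter, 2 without the trend and 3 without Ftl1, Fth1, Chil3 and Lyz2. It lay between 2 and 5 when 1 library was left out. Between the Cre lines it was 1, and 0 in both tables from which Lyz2 was removed, by construction. The replicate numbers did not pair the libraries: deviations of same-numbered WT and Lyz2cre libraries correlated at -0.0149, 0.0431 and 0.0656, and not every library was closest to its own number. With the replicate block, 4 members were called in Lyz2cre against WT, 2 (Lyz2 and Wfdc21) in CD11ccre against WT and 1 between the lines. Over all genes tested, the calls across alternatives ran from 121 to 337 higher and 118 to 905 lower in Lyz2cre against WT (247 and 524 as reported), from 8 to 300 and 13 to 438 in CD11ccre against WT (102 and 227 as reported), and from 1 to 198 and 1 to 12 between the lines (5 and 8 as reported). Leaving out the mitochondrially encoded genes was chosen after seeing the data. Depth cannot be recovered from TPM, so values near 0, such as those of Lcn2, have no counting limit.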
